A study of Mus musculus with 6 samples.

Results

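The Hox genes of embryonic mouse back skin were compared between embryos with and without an intact copy of Fzd6. They were taken as every probe set that the array's annotation assigns to a single gene named Hoxa, Hoxb, Hoxc or Hoxd with a number. That gave 48 probe sets of 33 genes, out of 45037 probe sets on the array and 18193 named genes. The Hoxa cluster was represented by 9 genes, Hoxb by 9, Hoxc by 7 and Hoxd by 8. The RefSeq gene table lists 39 mouse Hox genes, and those outside the 33 were not analysed here as genes of their own. A further 3 probe sets that name a pair of Hox genes and 5 of antisense transcripts were kept apart.

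Hox genes encode homeodomain transcription factors that give cells their position along the body axis. They lie in 4 clusters, on chromosomes 6 (Hoxa), 11 (Hoxb), 15 (Hoxc) and 2 (Hoxd), and genes in matching places of different clusters carry the same paralog number, from 1 to 13. Low numbers are active from the hindbrain or neck backwards and the highest only toward the tail, so the set of active numbers differs between levels of the trunk. Fibroblasts of the dermis keep such a positional pattern, and Hoxc13 has a separate role in the hair follicle.

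Skin of the back was collected at E15.5, during the period in which hair follicles form. The 3 controls had the genotype Fzd6 +/- and the 3 knockouts Fzd6 -/-, all on a C57BL6/129 mixed background. The controls thus also carry 1 mutant copy. Fzd6 encodes a Frizzled receptor of planar cell polarity, the system that aligns hairs with the body axis. The labels describe neither the mutant allele nor its range of cells, and they do not say whether an array holds a single embryo. The p-values therefore measure only the spread between these samples.

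Expression was read as RMA values on the log2 scale from Affymetrix MOE430 2.0 arrays, with array medians of 5.99 to 6.03. Differences are knockout minus control, with the 95% confidence interval of a limma fit over all probe sets. Probe sets bind with different strength, so values are compared between arrays and not between genes. The probe set with the highest mean stood for each gene, and 21 of the 33 Hox genes lay above 6.02, the median over all probe sets. The first Fzd6 probe set read 9.50, 9.51 and 9.11 in the controls against 9.07, 9.01 and 8.71 in the knockouts, and the second 6.22, 6.09 and 6.09 against 5.49, 5.53 and 5.36. In both, all knockouts lay below all controls, by -0.44 and -0.67 on average (limma adjusted p = 0.909 and 0.864). The last differed by -0.0097, and where these probe sets lie relative to the mutation is not given in the labels.

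No Hox gene passed an adjusted p of 0.05 in limma, and 0% of the 45037 probe sets did. The smallest adjusted p among the 33 genes was 0.909. At an unadjusted limma p under 0.05 there were 3 of 48 Hox probe sets, beside 5.21% of all probe sets, and each stood for a gene, beside 5.07% of all genes. Hoxb9 and Hoxc10 were lower in the knockout, as were 1.91% of all genes by this measure, and Hoxb13 was higher, as were 3.17%. The groups did not overlap in 2 Hox genes, Hoxb9 and Hoxb13, beside 11.3% of all genes. Over the 33 genes, 14 had higher and 19 lower values in the knockout, with a median difference of -0.072 beside 0.0070 over all 18193 genes. That median was -0.16 without knockout 2 and 0.056 without knockout 1. Of the 21 Hox genes above the median level 4 were higher and 17 lower, with a median of -0.13, beside 5193 higher, 6656 lower and -0.019 over the 11849 genes above it. With the replicate number as a block 6 of 33 Hox genes had an unadjusted p under 0.05, beside 12.2% of all genes in that fit. Without control 1 there were 7 of 33, beside 5.07% of all genes in that fit.

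By range of paralog numbers, the median difference was -0.044 over the 7 genes of groups 1 to 3 and -0.059 over the 12 genes of groups 4 to 8. Over the 14 genes of groups 9 to 13 it was -0.21, with 6 higher and 8 lower. The order of the ranges rested on single arrays. Without knockout 2 the medians were -0.19, -0.11 and -0.18, and without knockout 1 they were 0.027, 0.092 and -0.057. Within groups 9 to 13 all 4 genes of number 9 and all 3 of number 10 had lower values in the knockout, and all 4 of number 13 had higher values. These subsets were singled out after the values were seen and carry no test. Over all genes, 8665 of 18193 had lower and 9528 higher values. All 7 genes of numbers 9 and 10 lay above the median level, where 6656 of 11849 genes were lower and 5193 higher. All 4 of number 13 lay below it. The share of genes with lower values was thus larger above that level than over all genes.

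**Figure D1:**
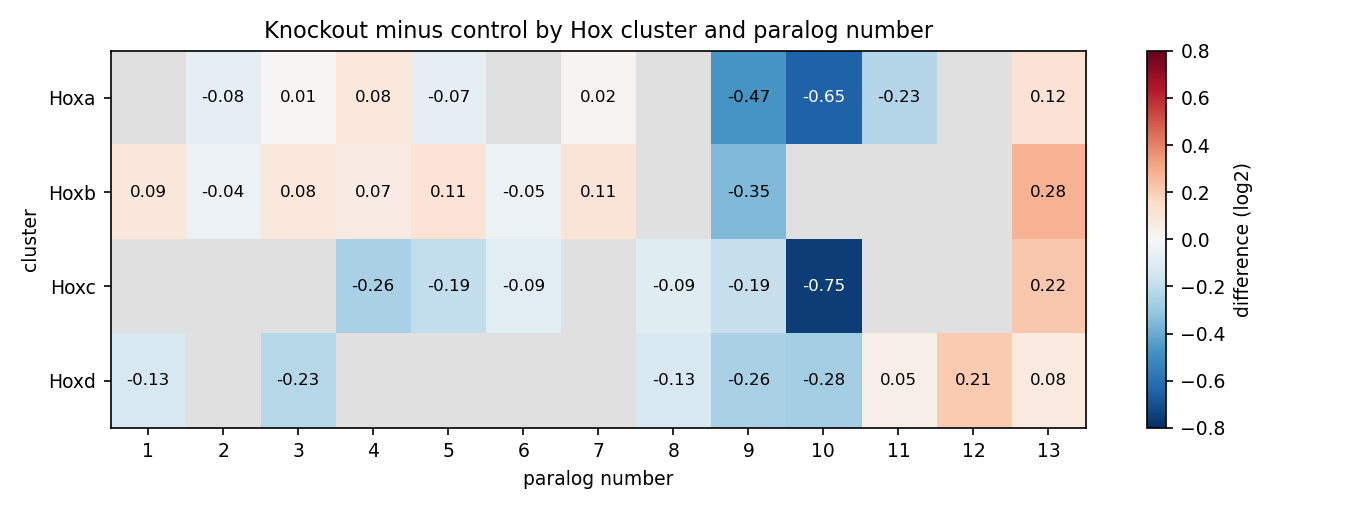
Knockout minus control difference (log2, colour and printed value) for each measured Hox gene, by cluster on the vertical axis and paralog number on the horizontal axis. The 7 genes of numbers 9 and 10 all have negative values, from -0.75 to -0.19, and none passed the test.

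Genes of number 10 act in the lower trunk, where they shape the lumbar region. Hoxc10 (probe set 1439798_at) had the largest negative difference among the 33 genes. Controls 1 to 3 read 6.60, 7.20 and 7.09, and knockouts 1 to 3 read 6.22, 5.58 and 6.84. Knockout 2 was the lowest array, but knockout 3 lay above control 1, so the groups overlapped. Group means were 6.97 ± 0.32 and 6.21 ± 0.63 (SD, n = 3 each). The difference was -0.75 (-1.47 to -0.034, limma adjusted p = 0.909), and -0.44 without knockout 2.

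Hoxa10 (1431475_a_at) read 6.16, 6.77 and 6.80 in the controls, with 6.47, 5.16 and 6.16 in the knockouts. Knockout 2 lay far below the other arrays, and knockout 1 lay above control 1. The difference was -0.65 (-1.43 to 0.14, limma adjusted p = 0.909). Without knockout 2 it was -0.26, and a dim second probe set differed by 0.10. Hoxd10 (1418606_at) read 5.89, 6.58 and 6.29 in the controls, with 5.91, 5.90 and 6.12 in the knockouts. Here control 1 was the lowest array, knockouts 1 and 2 lay just above it, and the difference was -0.28 (-0.68 to 0.12).

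Genes of number 9 act from the thorax backwards. Hoxb9 (1452317_at) read 6.25, 6.47 and 6.45 in the controls, with 5.91, 6.02 and 6.19 in the knockouts. All knockouts lay below all controls, as in 4.31% of all genes. The difference was -0.35 (-0.60 to -0.10, limma adjusted p = 0.909), which is 1.27-fold. With single arrays left out it ranged from -0.43 to -0.28.

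Hoxc9 (1449867_at) read 7.69, 7.76 and 7.87 in the controls, with 7.49, 7.54 and 7.73 in the knockouts. Knockout 3 alone reached into the range of the controls, and the difference was -0.19 (-0.41 to 0.035). Hoxd9 (1419126_at) read 8.44, 9.06 and 9.03 in the controls, with 8.01, 8.78 and 8.96 in the knockouts. Both replicate 1 arrays were low for Hoxd9. Its difference was -0.26 (-0.89 to 0.37), and 0.027 without knockout 1.

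Hoxa9 (1455626_at), the neighbour of Hoxa10, read 8.23, 9.12 and 9.01 in the controls, with 8.37, 7.84 and 8.73 in the knockouts. Knockout 2 was again lowest, and control 1 lay below knockouts 1 and 3. The difference was -0.47 (-1.15 to 0.20, limma adjusted p = 0.914), -0.23 without knockout 2 and -0.16 in a second probe set. On the other side of Hoxa10 lies Hoxa11, a limb and kidney gene, whose probe set lay below the median level. It read 5.10, 5.45 and 5.48 in the controls, with 5.23, 5.02 and 5.09 in the knockouts. Knockout 2 was lowest here too, control 1 lay below knockout 1, and the difference was -0.23 (-0.52 to 0.054).

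**Figure D2:**
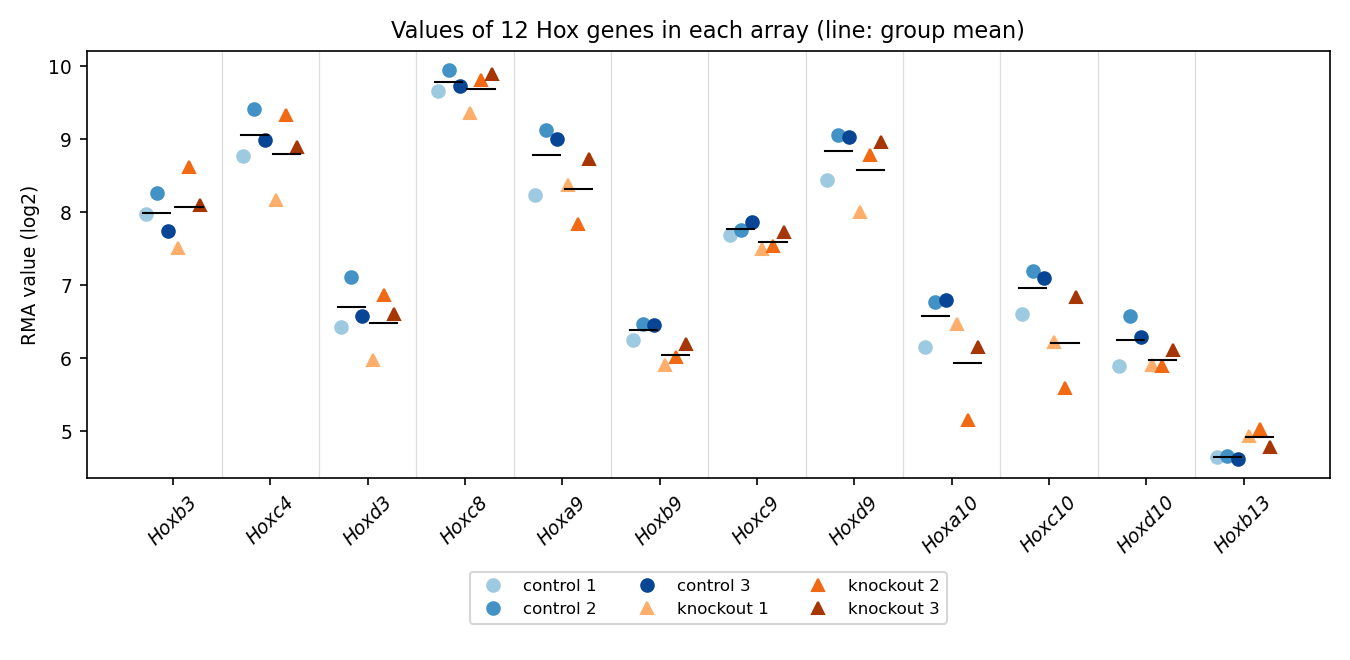
RMA values (log2) of 12 Hox genes on each of the 6 arrays, with circles for controls, triangles for knockouts and a line at each group mean. Knockout 2 is lowest for Hoxa9 (7.84), Hoxa10 (5.16) and Hoxc10 (5.58) and highest for Hoxb3 (8.62).

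The median difference over the 7 genes of numbers 9 and 10 was -0.35. With single arrays left out it lay between -0.46 and -0.26, and without both replicate 2 arrays it was -0.17. When knockouts were set against the control of the same number, Hoxb9, Hoxc9, Hoxc10 and Hoxd9 were lower in all 3 pairs, which with Hoxc4 makes 5 of the 33 Hox genes, beside 17.6% of all genes. Hoxb13 and Hoxd12 were higher in all 3, beside 19.1% of all genes. Hoxa9, Hoxa10 and Hoxd10 were higher in the knockout of pair 1, by 0.14, 0.32 and 0.022, and lower in the other two.

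Genes of number 13 act at the tail end of the axis and in the limb buds. All 4 had probe sets below the median level, where a value can hold little signal of its own gene, and detection was not scored. Hoxb13 (1419576_at) read 4.64, 4.66 and 4.62 in the controls, with 4.94, 5.03 and 4.79 in the knockouts. All knockouts lay above all controls, as in 6.99% of all genes, and the difference was 0.28 (0.074 to 0.48, limma adjusted p = 0.909). Hoxc13 (1425874_at), needed for hair keratin expression, read 5.24, 5.52 and 5.60 in the controls, with 5.63, 5.82 and 5.56 in the knockouts. Control 3 lay above knockout 3, so the groups overlapped, and the difference was 0.22 (-0.062 to 0.50).

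Hoxa13 and Hoxd13, both genes of digits and the genital tubercle, differed by 0.12 (-0.080 to 0.31) and 0.076 (-0.10 to 0.26), with -0.035 in a second Hoxd13 probe set. The median of the 4 genes was 0.17, and 0.13 to 0.19 with single arrays left out. Hoxd12, also a gene of digits, read 4.13, 3.72 and 3.95 in the controls, with 4.16, 4.02 and 4.23 in the knockouts. Control 1 lay above knockout 2, and the difference was 0.21 (-0.073 to 0.49). Hoxd11 differed by 0.049.

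Promoter sequence was set beside these values because numbers 9 and 10 and number 13 differed in sign. That split was picked after the values were seen, and a link between it and promoter sequence was not tested. RefSeq windows (GRCm38.p6) matched 19 of the 33 genes, in 21 windows. Hoxb9, Hoxc9, Hoxc10, Hoxb13 and Hoxc13 had no window, and these include every Hox gene with an unadjusted limma p under 0.05. The 250 bases before the start of transcription held a median of 13 CG pairs in these windows, beside 6 over 32851 windows of all genes. Both strands were searched for TGATNNAT, bound by Hox proteins together with Pbx, and for TTTATNG, the core bound by Cdx factors, and neither motif contains the other. TGATNNAT was found in 3 of the 21 windows (Hoxa2, Hoxb1 and 1 of Hoxd11), or 14.3%, beside 7.68% of all windows. TTTATNG was in 0 of 21, beside 9.81% of all windows. A number 10, a number 9 and a pair of number 13 genes are shown 5′ to 3′ on the strand of the gene, up to the base before its start, with CG pairs in capitals.
Hoxa10, chr6:52240855-52241104, minus strand: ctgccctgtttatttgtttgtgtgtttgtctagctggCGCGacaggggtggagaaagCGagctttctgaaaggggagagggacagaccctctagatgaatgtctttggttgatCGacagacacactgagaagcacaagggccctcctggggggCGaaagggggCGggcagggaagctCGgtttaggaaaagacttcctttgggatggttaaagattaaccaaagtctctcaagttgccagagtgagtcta
Hoxd9, chr2:74697513-74697762, plus strand: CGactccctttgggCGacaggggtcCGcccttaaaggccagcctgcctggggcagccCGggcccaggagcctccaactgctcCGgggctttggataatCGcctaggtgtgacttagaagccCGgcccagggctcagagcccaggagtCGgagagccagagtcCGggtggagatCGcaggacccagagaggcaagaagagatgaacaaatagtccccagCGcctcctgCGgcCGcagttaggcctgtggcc
Hoxa13, chr6:52260881-52261130, minus strand: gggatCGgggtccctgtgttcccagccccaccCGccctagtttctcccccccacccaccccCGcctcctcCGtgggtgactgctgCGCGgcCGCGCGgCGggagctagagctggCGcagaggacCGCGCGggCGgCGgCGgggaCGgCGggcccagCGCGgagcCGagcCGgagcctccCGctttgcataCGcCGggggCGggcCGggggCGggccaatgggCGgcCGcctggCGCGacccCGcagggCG
Hoxd13, chr2:74667975-74668224, plus strand: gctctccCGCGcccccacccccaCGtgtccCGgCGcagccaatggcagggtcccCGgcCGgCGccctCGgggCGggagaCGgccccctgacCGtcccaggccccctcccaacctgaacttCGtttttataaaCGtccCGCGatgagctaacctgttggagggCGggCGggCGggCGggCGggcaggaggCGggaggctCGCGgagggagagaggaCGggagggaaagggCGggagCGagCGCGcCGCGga
Hoxa10 held 7 and Hoxd9 13 CG pairs, beside 35 in Hoxa13 and 31 in Hoxd13, and these windows held neither motif. A second Hoxa10 window, not shown, held 20 CG pairs, as did that of Hoxd10, and that of Hoxa9 held 3, so the numbers varied widely within numbers 9 and 10.

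Of the 19 genes of numbers 1 to 8, 8 were higher and 11 lower, with a median of -0.046. All 4 of these in Hoxc were lower. Over all its numbers, the Hoxb cluster had 6 of 9 genes higher, with a median of 0.083 that was -0.082 without knockout 2. Over the 5 Hoxb genes above the median level the median difference was -0.044. In the Hoxc cluster, which shares chromosome 15 with Fzd6, 6 of 7 genes were lower, with a median of -0.19 that was 0.068 without knockout 1. In Hoxa the median was -0.072, and -0.16 to 0.0035 with single arrays left out (without control 3 and without control 1). In Hoxd it was -0.13, and -0.30 to 0.068 (without control 1 and without knockout 1).

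Hoxb2 and Hoxb3 pattern the hindbrain and neck. Hoxb3 (1456229_at) read 7.97, 8.27 and 7.74 in the controls, with 7.51, 8.62 and 8.10 in the knockouts. Knockouts held both its lowest and its highest value, and the difference was 0.083 (-0.54 to 0.71). Hoxb2 (1449397_at) read 8.82, 9.08 and 8.99 in the controls, with 8.51, 9.24 and 9.01 in the knockouts. Again knockout 1 was lowest and knockout 2 highest, and the difference was -0.044 (-0.47 to 0.38). Hoxb1, Hoxb4, Hoxb5, Hoxb6 and Hoxb7 differed by -0.046 to 0.11.

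Hoxc4 (1422870_at), a gene of the neck, read 8.77, 9.41 and 8.995 in the controls, with 8.16, 9.33 and 8.90 in the knockouts. Knockout 1 was lowest, the other knockouts lay within the controls, and the difference was -0.26 (-0.95 to 0.42). Without knockout 1 it was 0.055. Hoxc8 (1452412_at), a gene of the thorax, read 9.66, 9.95 and 9.74 in the controls, with 9.36, 9.81 and 9.89 in the knockouts. Knockout 1 was lowest again, and the difference was -0.095 (-0.45 to 0.26). Between them in the cluster, Hoxc5 and Hoxc6 differed by -0.19 and -0.093.

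Hoxd8 (1431099_at), a trunk gene, read 9.12, 9.82 and 9.58 in the controls, with 8.85, 9.65 and 9.66 in the knockouts. Both replicate 1 arrays were lowest, and the difference was -0.13 (-0.73 to 0.48), with -0.35 in a second probe set. Hoxd3, a gene of the upper neck, read 6.43, 7.11 and 6.58 in the controls, with 5.97, 6.87 and 6.60 in the knockouts. The replicate 1 arrays were lowest here too, and the difference was -0.23 (-0.83 to 0.37). Hoxd1, whose probe set lay below the median level, read 4.57, 5.06 and 4.96 in the controls, with 4.19, 5.63 and 4.38 in the knockouts. Knockout 2 was highest and knockout 1 lowest, and the difference was -0.13 (-0.96 to 0.71).

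Hoxa5 (1448926_at), a gene of the neck and upper thorax, read 9.26, 9.17 and 8.69 in the controls, with 8.94, 9.07 and 8.89 in the knockouts. Every knockout lay within the range of the controls. Its difference was -0.072 (-0.43 to 0.29), with 0.086 in a second probe set. Hoxa2, Hoxa3, Hoxa4 and Hoxa7 differed by -0.077 to 0.083. Of the 11 Hox genes with several probe sets, 6 had the same sign in all of them, and 0 had differences over 0.2 in opposite directions.

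The spread over the 6 arrays was wider in Hox genes than in most genes. Their median SD was 0.21, beside 0.14 over all 18193 genes and 0.16 over the 11849 above the median level. Such a spread was not particular to Hox genes. In the lists described below it was 0.21 for trithorax and activator genes and 0.23 for keratinocyte genes. It was 0.35 for fibroblast, 0.41 for muscle and 0.45 for endothelial genes, and 0.081 to 0.17 in the other lists. Of the 33 genes, 27 had an SD above that of 50% of all genes and 9 above that of 95%. The SD was 0.61 in both Hoxa10 and Hoxc10, followed by Hoxd1 (0.53), Hoxa9 (0.49), Hoxc4 (0.45) and Hoxd9 (0.42). It was narrowest in Hoxd13 and Hoxa3, at 0.064 and 0.065.

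Single arrays stood out across many genes. Knockout 1 was lowest in 16 of 33 genes, including 9 of the 12 genes of groups 4 to 8, and control 2 was highest in 11. In knockout 2, genes of numbers 1 to 8 lay on average 0.23 above their mean over the 6 arrays, while the deviation of numbers 9 and 10 was -0.47. The deviation of numbers 9 and 10 minus that of 1 to 8 was thus -0.70 in knockout 2. It was -0.048, 0.21 and 0.40 in controls 1 to 3, and 0.039 and 0.090 in knockouts 1 and 3. The groups overlapped, since knockouts 1 and 3 lay above control 1. The low value of knockout 2 was not shared by all 7 genes of numbers 9 and 10, a set singled out after the values were seen. Knockout 2 was lowest in 3 of them (Hoxa9, Hoxa10 and Hoxc10), knockout 1 in 3 and control 1 in 1. Hoxd9 read 8.78 in knockout 2, above its mean of 8.71 over the 6 arrays.

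**Figure D3:**
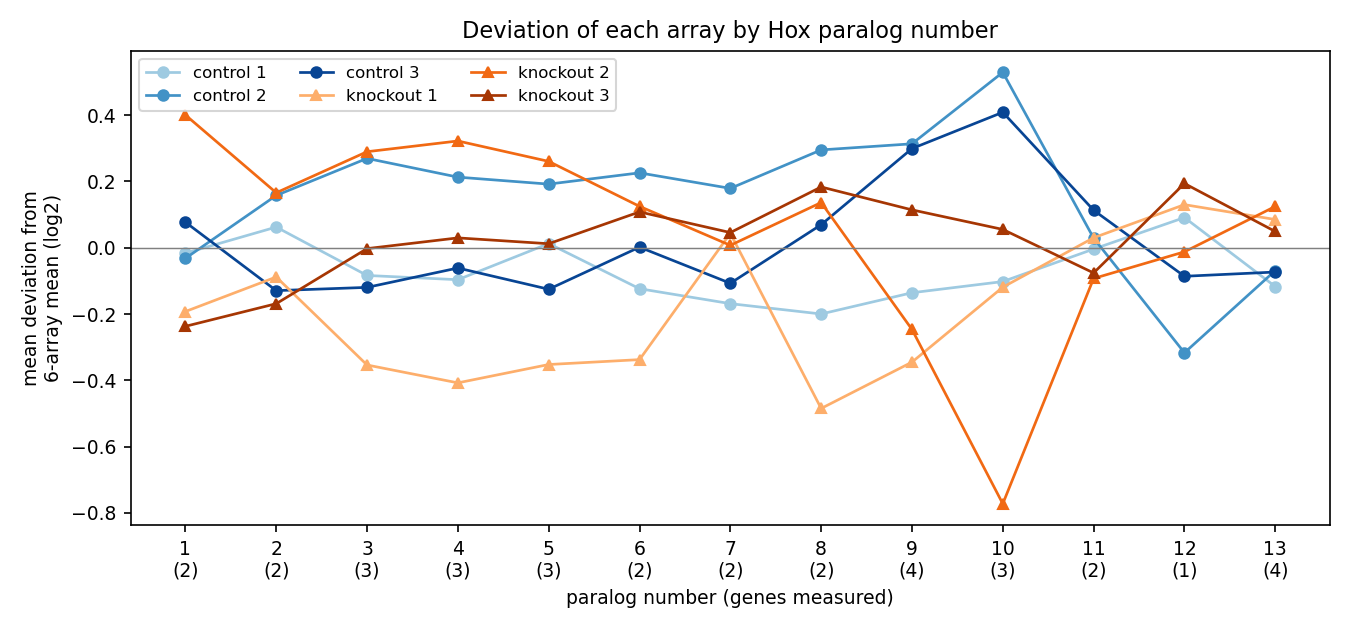
Mean deviation of each array from the mean of the 6 arrays (log2) over the Hox genes of each paralog number, with the number of genes in brackets, circles for controls and triangles for knockouts. Knockout 2 lies at 0.40 at number 1, which holds 2 genes below the median level, and at -0.77 at number 10. At numbers 11, 12 and 13 it lies at -0.093, -0.012 and 0.12. Knockout 1 lies at -0.41 at number 4 and -0.48 at number 8.

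Markers of cell types were set beside these arrays. In RNA of whole skin, fewer cells of a type and less RNA per cell cannot be told apart. The 8 dermal fibroblast genes, with an array mean of 11.28 to 11.97, had their lowest deviations in knockout 1 (-0.44) and control 1 (-0.25). The 6 endothelial genes did as well, at -0.82 and -0.32. These arrays also had the lowest deviations of Hox numbers 1 to 8, -0.29 and -0.073, but control 3 was close to control 1, at -0.058. In paralog groups 1 to 3 alone, control 1 (-0.023) lay above knockout 3 (-0.12) and control 3 (-0.066). Lowest values in knockout 1 and control 1 were not particular to dermal or endothelial markers. Of the lists described below, trithorax and activator genes had -0.28 in knockout 1 and -0.14 in control 1, their lowest deviations. Body position regulators (-0.24 and -0.17), TALE partners (-0.13 and -0.079) and Polycomb genes (-0.12 and -0.038) had their lowest deviations there too. Axial inducers and homeobox relatives also reached their minimum in knockout 1, but control 3 lay below control 1. The 8 keratinocyte genes, at 12.57 to 13.16, were highest in knockout 1, at 0.32. Their median difference was 0.22, with 7 of 8 higher. At an unadjusted limma p under 0.05 there were 2 of 8, both higher, beside 3.17% of all genes. These were the spinous layer keratins Krt1 (0.32, 0.051 to 0.59) and Krt10 (0.23, 0.015 to 0.44), followed by the basal keratin Krt15 (0.30, -0.018 to 0.62).

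The 8 skeletal muscle genes, at 9.995 to 10.97, were lowest in knockout 2 (-0.50) and highest in control 2 (0.47). Hox numbers 9 and 10 were lowest and highest in the same arrays, at -0.47 and 0.41. The arrays between these were ordered differently. The muscle genes were at -0.28 in control 1, -0.014 in control 3, 0.027 in knockout 1 and 0.31 in knockout 3. Hox numbers 9 and 10 were at -0.12, 0.35, -0.25 and 0.089 in the same arrays. With the muscle mean as a covariate, an alternative chosen after seeing the data, the median difference of numbers 9 and 10 was -0.33. Each gene of the set moved toward zero in that fit. Hoxa9, Hoxa10 and Hoxc10 differed by -0.35, -0.52 and -0.62, beside -0.47, -0.65 and -0.75 without the covariate. The part of muscle, fibroblast or endothelial RNA in the Hox values was not tested. Of the 5 cartilage genes 1 lay above the median level of all probe sets, Col9a1 at 6.24 to 7.07. Of the 6 genes of neurons and spinal cord 2 did, Tubb3 at 5.84 to 6.47 and Stmn2 at 8.49 to 8.77. The other members of both lists lay below it.

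**Figure D4:**
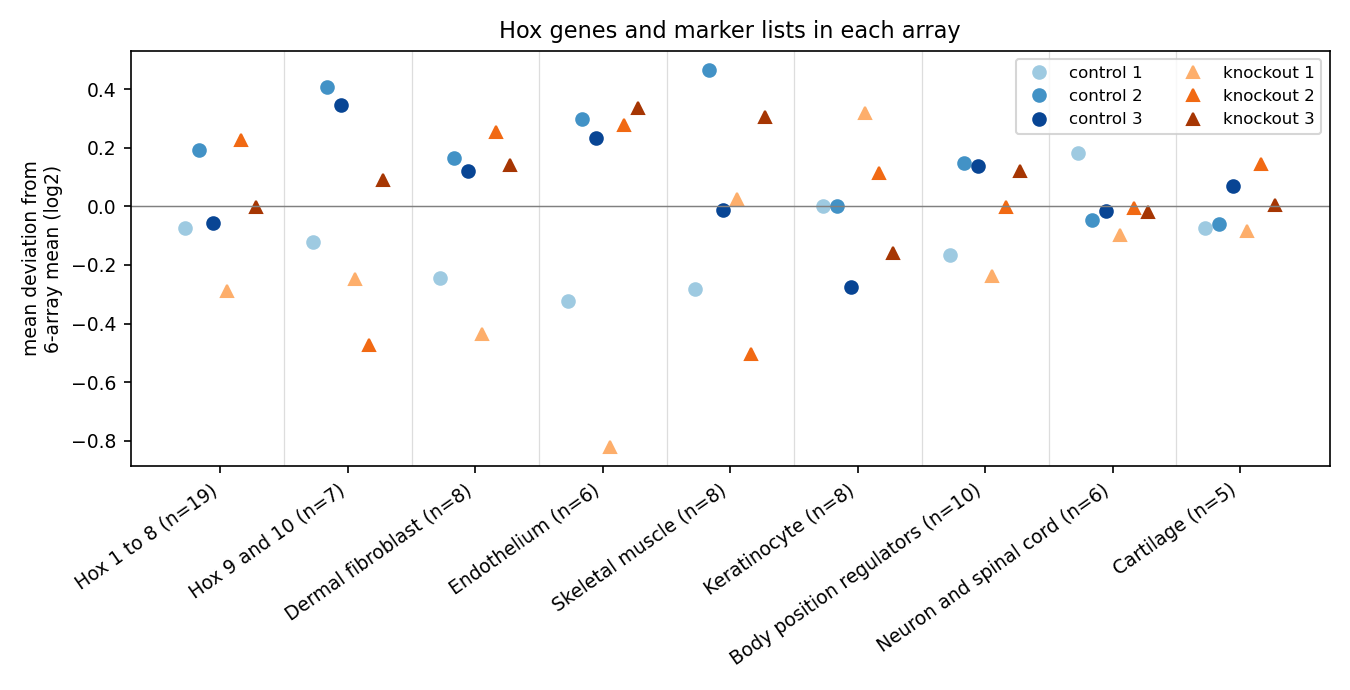
Mean deviation of each array from the mean of the 6 arrays (log2) for Hox numbers 1 to 8, Hox numbers 9 and 10 and 7 marker lists, with the number of genes in brackets. Knockout 2 is lowest for Hox numbers 9 and 10 (-0.47) and skeletal muscle (-0.50), and knockout 1 for Hox numbers 1 to 8 (-0.29) and endothelium (-0.82).

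Among 10 regulators of body position, 3 had higher and 7 lower values, with a median of -0.035, and 0 passed the adjusted test. Msx1, a homeobox gene of mesenchyme, read 6.35, 6.45 and 6.50 in the controls, with 6.67, 6.66 and 6.63 in the knockouts. All knockouts lay above all controls, as in 6.99% of all genes, and the difference was 0.22 (0.034 to 0.40, limma adjusted p = 0.909). Tbx18 and Tbx4 differed by -0.38 (-0.95 to 0.18) and 0.11 (-0.10 to 0.33). Tbx15, which patterns dorsal dermis and is named here after its value was seen, was lowest in knockout 1, at 8.22, and differed by -0.29 (-0.92 to 0.34).

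Partners and regulators of Hox proteins were examined as lists, and 0 of their 50 measured members passed the adjusted test in limma. Only 1 of the 50, Pbx4, had an unadjusted limma p under 0.05, beside 5.07% of all genes. Of 8 TALE partners, homeodomain proteins that bind DNA together with Hox proteins, 3 were higher and 5 lower (median -0.049). Pbx4, with a probe set below the median level, was at 4.90 to 5.01 in the controls and 5.12 to 5.28 in the knockouts. All its knockouts lay above all controls, as in 6.99% of all genes (0.24, 0.049 to 0.43). Pbx3 and Meis1 differed by 0.18 (-0.095 to 0.45) and -0.23 (-0.60 to 0.13).

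Of 15 Polycomb genes, whose products keep Hox clusters silent, 6 were higher and 9 lower (median -0.038). In 4 of the 15 all knockouts lay below all controls, beside 4.31% of all genes. Ezh2, the methyltransferase of the complex, read 10.13, 10.14 and 9.92 in the controls, with 9.82, 9.87 and 9.91 in the knockouts. Control 3 and knockout 3 nearly met, and the difference was -0.20 (-0.41 to 0.011). Its partner Suz12 differed by -0.15 (-0.33 to 0.032), the ubiquitin ligase Rnf2 by -0.17 (-0.38 to 0.034) and Bmi1 by -0.15 (-0.35 to 0.043). Bmi1 was named after its value was seen, to complete this count. All 4 had an unadjusted limma p above 0.05.

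Of 9 trithorax and activator genes, which keep Hox genes active, 1 was higher and 8 lower (median -0.11), but without knockout 1 the median was 0.033. Wdr5 differed by -0.15 (-0.39 to 0.086), Ash2l by -0.11 (-0.31 to 0.094) and the insulator protein Ctcf by 0.19 (-0.13 to 0.52). Of 10 genes listed as axial inducers, 5 were higher and 5 lower (median 0.0095). Members of this list switch Hox genes on in the early embryo, but Cyp26a1 and Cyp26b1 do not. The retinoic acid receptor Rarb differed by -0.27 (-0.58 to 0.037), Cdx2 by 0.15 and Aldh1a2, an enzyme of retinoic acid synthesis, by -0.10, all from probe sets below the median level. The 8 homeobox relatives of Hox genes all lay below that level, 3 higher and 5 lower, with Gsx1 at 0.18, Pdx1 at 0.15 and En1 at -0.27 (-0.89 to 0.34).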

How the data were processed

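Total RNA from 6 back skin samples was measured on MOE430 2.0 arrays, 1 array a sample. The authors deposited RMA log2 values per probe set, per the submitters' processing notes. No version or log base is named there, and the base was read from the values, which ran from 2.39 to 14.8. RMA summarises the probes of a set and quantile-normalises the arrays, which can compress differences of dim genes. Of 45101 probe sets, 64 array controls were left out. The platform annotation gave 34945 of the others 1 symbol, 932 several and 9160 none, and 34741 matched the RefSeq gene table (GRCm38.p6).

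Genotypes were compared with limma 3.58.1 (R 4.3.3) over 45037 probe sets, two-sided and without covariates, with Benjamini-Hochberg adjustment. The prior had 3.43 and the residuals 4 degrees of freedom, and the code was tested on simulated data. The members and the 12 lists (103 entries, 101 measured) were chosen with earlier results of these data known. Named in full were, per cluster, the 2 genes with the smallest p and the 2 with the brightest probe sets, then the 6 with the widest range. In the partner, regulator, position and keratinocyte lists these were the 3 genes with the smallest p. The other marker lists are given as means, and Col9a1, Tubb3 and Stmn2 were named after their values were seen.

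Arrays of the same replicate number deviated from their group means together (correlations of 0.568, 0.359 and 0.124), although control 2 and knockout 3 gave 0.422. As all 3 pairs exceeded 0.1, the numbers served as pairs; this rests on the data, as the meaning of a number is not labelled. Plots used Python 3.11.15 and matplotlib 3.10.9.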

Additional observations from a re-analysis of the deposited data

How the results depend on the processing

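Under every alternative run, 0 Hox genes passed the adjusted test in limma. The alternatives were a variance trend, a filter on dim probe sets, renewed quantile normalisation, array centring and weighting, the replicate block, a covariate (Y-linked genes or muscle), other rules for probe sets, an adjusted p of 0.1, and each array left out. The replicate block called 3 of all probe sets in place of 0, and changed no other call. Hox genes at an unadjusted p under 0.05 numbered 2 to 7 as single arrays were left out, against 3 with all arrays. Leaving out 1 array moved the median difference between -0.082 (without knockout 2) and 0.16 in Hoxb, between -0.23 and 0.068 (without knockout 1) in Hoxc, and between -0.29 and -0.057 (without knockout 1) in paralog groups 9 to 13. The median SD of groups 9 to 13 was 0.19, and 0.42 among those above the median level. Of 128 alternative values of cluster and range medians, 125 stayed within the spread between replicates, but some of these changed sign. The median over all Hox genes was 0.0086 with array weights, and that of Hoxd was 0.068 without knockout 1. That of groups 4 to 8 was 0.055 without control 2, and that of groups 1 to 3 was 0.055 without knockout 3. With single arrays left out, the median of 11 of the 12 lists changed sign, all but that of the keratinocyte genes. Of 266 alternative values of single named genes, 17 changed sign, none of them called. The cause of these moves was not tested. The 7 genes of numbers 11 to 13 all had dim probe sets, which limits what 3 arrays a group can show for them.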

Other observations

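The probe sets kept apart gave these values, and none passed the adjusted test in limma. The brighter probe set of Hoxd3os1, an antisense transcript of the Hoxd cluster, read 7.98, 9.003 and 8.45 in the controls, with 7.51, 8.51 and 8.47 in the knockouts. Both replicate 1 arrays were lowest, and the difference was -0.32 (-1.09 to 0.46). Hoxb5os read 8.95, 8.49 and 8.42 in the controls, with 8.25, 8.79 and 8.53 in the knockouts. Control 1 was highest and knockout 1 lowest, and the difference was -0.098 (-0.52 to 0.32). The dim probe sets of Hoxa11os differed by 0.15 and 0.021, and that of Hoxd3os1 by 0.16. Those shared by Hoxd3 and Hoxd4 differed by -0.071 and -0.15, and the one shared by Hoxb7 and Hoxb8 by 0.053.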
